A study of Mus musculus with 6 samples.

Results

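Genes of blood coagulation and of plasminogen activation were followed in tumor-associated macrophages (TAMs) that carried or lacked the receptor for complement fragment C5a (C5aR). The 9 genes were taken by symbol from the 56980 genes of the deposited table and were F3, F7, F10, F5, F13a1, Plau, Plaur, Serpinb2 and Thbs1. Expression was given as TPM, a read share corrected for gene length and scaled to a fixed total, so that levels can be compared between genes. All 9 passed the filter on low values, which asked for 3 or more of the 6 libraries with 1 TPM or above, and 14776 genes in all passed it and were tested. ID8 cells, a mouse ovarian epithelial cancer line, had been given intraperitoneally to wild-type (WT) C57BL/6 mice or to C5aR-/- mice on the C57BL/6 background, bought at an age of 6 to 8 weeks. After 2 months, live CD45+CD11b+Ly6G-F4/80+ cells were sorted from the abdominal tumors, and bulk RNA was sequenced from 3 WT and 3 C5aR-/- samples. The injected tumor cells were the same line in both groups, the knockout was present in all host cells, and no mouse without tumor was included. The study's legend gives more mice per group than the libraries analysed here, and the labels give no animal for a library, so the p-values measure only the spread between these samples.

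Coagulation starts when tissue factor, a membrane receptor encoded by F3, binds factor VII and the pair activates factor X, which with its cofactor factor V turns prothrombin into thrombin. Thrombin makes fibrin, and the factor XIII A subunit, encoded by F13a1, cross-links it. In the opposing system, urokinase (Plau) on its receptor (Plaur) turns plasminogen into plasmin, which digests fibrin, and plasminogen activator inhibitor 2 (Serpinb2) inhibits urokinase. Thrombospondin 1 (Thbs1) is a secreted matrix-associated protein that binds CD36 and CD47. Most circulating clotting factors are made by liver, while macrophages are a known source of tissue factor, factor XIII A, urokinase receptor and Serpinb2.

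The 9 genes are protein-coding and lie on 7 chromosomes in GENCODE M21 (GRCm38). F7 (chr8:13026034-13035809) and F10 (chr8:13037308-13056676) are neighbors on the plus strand, with 1498 bases between them. F3 was at chr3:121723537-121735048, F5 at chr1:164151838-164220277, Serpinb2 at chr1:107511423-107535478, Plaur at chr7:24462484-24475968, Plau at chr14:20836660-20843385 and Thbs1 at chr2:118111876-118127133, each on the plus strand, and F13a1 at chr13:36867178-37050244 on the minus strand. Plaur shares its chromosome with C5ar1, the deleted gene, and starts 8.20 Mb from its end.

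RefSeq promoter windows (GRCm38.p6) were used for 7 of the 9 genes, and none for Plau and Thbs1. Of 5 short motifs searched on both strands in the 250 bases before each start, chosen with the expression values known, TGANTCA, the AP-1 motif, was in the windows of 3 genes: F3, Plaur and Serpinb2. It was present in 6.75% of the 32851 windows of all genes. The 4 sequences below are shown because F3, Plaur and Serpinb2 carried the motif, in capitals, while F7, the coagulation protease whose groups did not overlap, carried none. Each runs 5′ to 3′ on the plus strand.
F3, chr3:121723287-121723536: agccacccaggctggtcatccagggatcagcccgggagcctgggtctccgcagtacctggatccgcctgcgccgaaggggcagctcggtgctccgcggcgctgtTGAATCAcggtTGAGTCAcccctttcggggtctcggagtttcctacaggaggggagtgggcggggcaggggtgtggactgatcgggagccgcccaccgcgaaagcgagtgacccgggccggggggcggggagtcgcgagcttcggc
Plaur, chr7:24462233-24462482: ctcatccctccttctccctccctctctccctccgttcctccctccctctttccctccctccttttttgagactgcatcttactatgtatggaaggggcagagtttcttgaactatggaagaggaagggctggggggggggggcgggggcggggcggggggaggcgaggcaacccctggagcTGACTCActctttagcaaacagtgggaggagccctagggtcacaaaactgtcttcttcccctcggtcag
Serpinb2, chr1:107511173-107511422: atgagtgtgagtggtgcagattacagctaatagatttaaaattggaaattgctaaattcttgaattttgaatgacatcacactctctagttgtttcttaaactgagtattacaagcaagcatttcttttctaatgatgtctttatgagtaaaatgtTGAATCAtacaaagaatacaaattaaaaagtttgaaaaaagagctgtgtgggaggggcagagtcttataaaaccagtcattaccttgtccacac
F7, chr8:13025784-13026033: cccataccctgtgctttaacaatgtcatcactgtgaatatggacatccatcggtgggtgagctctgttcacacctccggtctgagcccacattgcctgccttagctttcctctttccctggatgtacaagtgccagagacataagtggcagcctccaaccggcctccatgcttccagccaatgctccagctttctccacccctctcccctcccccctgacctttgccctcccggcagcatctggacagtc
F3 had the motif at 146 and 135 bases before its start, Plaur at 69 and Serpinb2 at 94. The windows of F7, F10, F5 and F13a1 held no such letters, which says nothing of what binds there. Serpinb2 and F13a1 each had a second window, from another start, which is not shown. The other motifs were GATAA, in F13a1 and in the second window of Serpinb2 and in 22.6% of all windows, GAGGAA, in F7, F13a1 and Plaur and in 23.3%, TTGCNNAA, in Plaur and Serpinb2 and in 9.56%, and CACGTG, in no member and in 6.02%. F3, Plaur and Serpinb2, the genes with the AP-1 motif, had group differences of both signs, as given below.

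C5ar1 itself read 86.5, 37.3 and 16.2 TPM in the WT libraries and 0.38, 0.11 and 0.05 in the C5aR-/- libraries, matching the labels. The 10 macrophage markers were all expressed, and Adgre1, which encodes F4/80, ranged from 25.4 to 114 TPM. Their summed TPM differed widely within each group, at 3154, 1397 and 1187 in WT and 4007, 2265 and 1434 in C5aR-/- TAMs. Marker sums of cells outside the gate were also high: the 6 epithelial genes summed to 1664 to 2207 TPM and the 6 mesothelial genes to 721 to 1402. The epithelial sum was mostly Krt8, Krt18 and Krt19, while Krt7 read 1.31 to 16.05 TPM, Epcam 2.09 to 6.33 and Cldn4 0.13 to 0.39. In such bulk samples, fewer cells of a type and less RNA per cell cannot be told apart. TPM keeps no read depth, so the depth behind each value is unknown.

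Of the 9 genes, 6 had a lower mean log2(TPM + 1) in C5aR-/- TAMs and 3 a higher one. Over all genes tested, 55.5% were lower and 44.5% higher. The median difference of the 9 genes was -0.84, beside -0.048 over all genes tested. Serpinb2, F10, F7, F5 and F3 were on the lower side, Thbs1 was near 0, and Plaur, F13a1 and Plau were on the higher side. The adjusted threshold, a limma p under 0.05 after Benjamini-Hochberg adjustment and a change of 2-fold or more, was passed by 0 members and by 0.0% of all genes tested, although 2133 genes had a p under 0.05 before adjustment. At the unadjusted threshold, which takes the p before adjustment and the same fold, 3 members were lower, Serpinb2, F7 and F10, against 2.84% of all genes tested, and 0 were higher, against 2.13%. In 2 members, Serpinb2 and F7, every C5aR-/- library was below every WT library, which 12.5% of all genes tested also showed. No member had every C5aR-/- library above the WT libraries, as 8.84% of genes did.

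**Figure D1:**
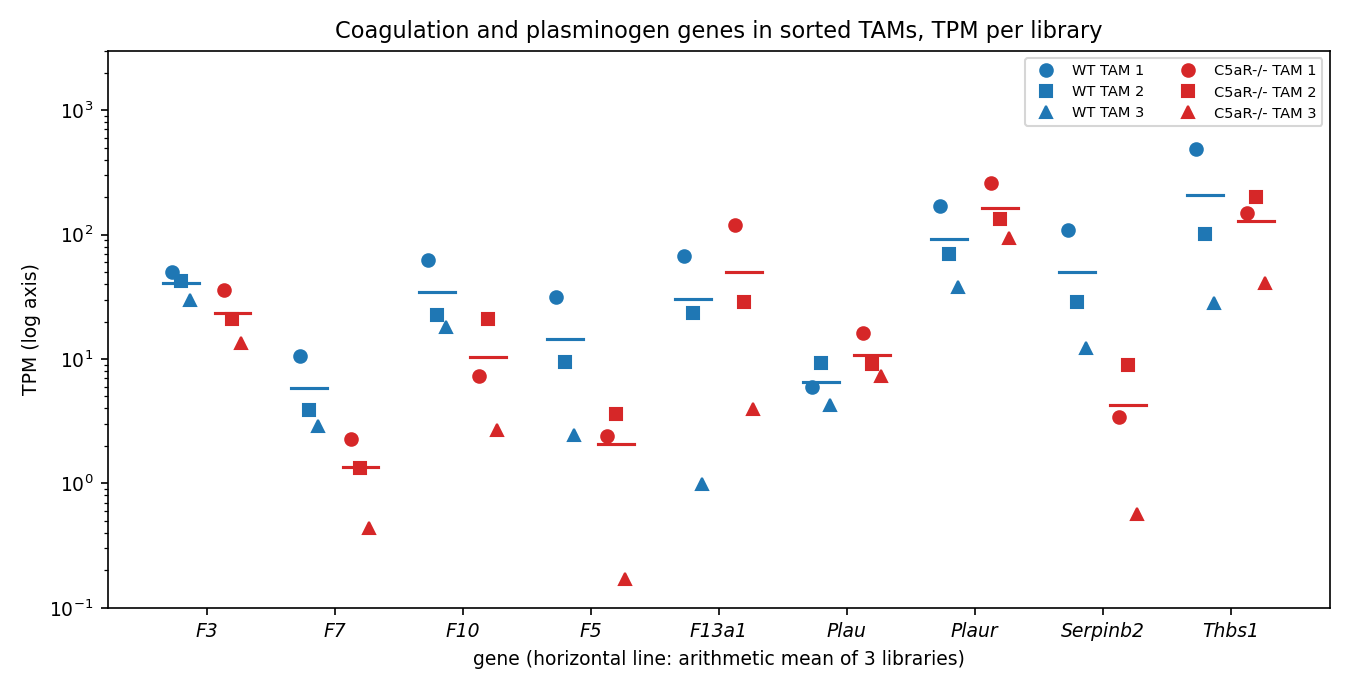
TPM of the 9 genes (horizontal axis) in each of the 6 libraries on a log axis, with WT TAMs in blue and C5aR-/- TAMs in red, symbols for the library number and a line at the arithmetic mean of the 3 libraries. Serpinb2 and F7 are the genes whose groups do not overlap, and the triangle, library 3, is the lowest point of its group for all 9 genes.

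The libraries of a group lay far apart. WT TAM 3 was the lowest WT library and C5aR-/- TAM 3 the lowest C5aR-/- library for all 9 genes, a pattern found in 13.3% of the genes tested. WT TAM 1 was the highest WT library for 8 of them, the exception being Plau, which was highest in WT TAM 2. In C5aR-/- TAMs, 5 genes were highest in library 1 and 4, F10, F5, Serpinb2 and Thbs1, in library 2. The summed TPM of the 9 genes was 994, 311 and 137 in WT and 594, 429 and 163 in C5aR-/- TAMs. The mean log2(TPM + 1) of the 10 macrophage markers, called the macrophage index here, was also lowest in library 3 and highest in library 1 of each group, at 7.31, 6.16 and 5.84 in WT and 7.53, 6.77 and 6.10 in C5aR-/- TAMs. The part of macrophage content in the spread of the members was not tested beyond the index-relative values given below.

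Tissue factor, the trigger of the cascade, was abundant in both groups. F3 read 50.0, 42.4 and 29.8 TPM in WT and 36.0, 21 and 13.5 TPM in C5aR-/- TAMs. The groups overlapped through a single pair, since C5aR-/- TAM 1 exceeded WT TAM 3. The mean was 40.7 ± 10.2 TPM in WT and 23.5 ± 11.4 TPM in C5aR-/- TAMs (SD, n = 3), a difference in mean log2(TPM + 1) of -0.84 with a standard error (SE) of 0.36, and limma gave an adjusted p of 0.36. Its highest library was 3.69 times its lowest, the smallest such ratio of the members. Epithelial, mesothelial and fibroblast cells are also known to make tissue factor, and their markers were present. The mesothelial list summed to 721 to 1402 TPM and the fibroblast list to 404 to 605 TPM. In C5aR-/- TAM 3 the fibroblast marker Col1a1 was at its highest, 236 TPM, and Dcn at its lowest, 180 TPM. Of the 6 mesothelial genes, 4 were lower in C5aR-/- TAMs at the unadjusted threshold, against 2.84% of all genes tested. Msln went the other way without overlap, at 153.2 ± 23.47 TPM in WT and 280.0 ± 10.75 TPM in C5aR-/- TAMs (SD, n = 3; difference 0.88). Every C5aR-/- library was above every WT library in 8.84% of all genes tested. Wt1 differed by -0.10. The part of these cells in the F3 values was not tested.

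Factor VII, the protease that tissue factor binds, was the least abundant member and separated the groups. F7 read 10.6, 3.91 and 2.89 TPM in WT and 2.29, 1.33 and 0.44 TPM in C5aR-/- TAMs, so the highest C5aR-/- value stayed under the lowest WT value. The difference in mean log2(TPM + 1) was -1.44 (SE 0.49, 95% confidence interval -2.62 to -0.26), with an adjusted p of 0.276 in limma, and the exact two-sided permutation p was 0.1, the smallest that 3 against 3 libraries can give. Its neighbor F10 encodes factor X, the substrate of the F3-F7 complex, and was expressed several times higher. F10 read 62.6, 22.5 and 18.2 TPM in WT and 7.36, 21 and 2.68 TPM in C5aR-/- TAMs. C5aR-/- TAM 2 lay inside the WT range and the other C5aR-/- libraries below it. The F10 difference was -1.80 (SE 0.72, interval -3.52 to -0.08, limma adjusted p 0.331). F7 no longer passed the unadjusted threshold without WT TAM 1 (-0.97), C5aR-/- TAM 2 (-1.47) or C5aR-/- TAM 3 (-1.13), and F10 no longer passed it without WT TAM 1 (-1.27), WT TAM 2 (-1.99), C5aR-/- TAM 1 (-1.77) or C5aR-/- TAM 3 (-1.17).

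The TPM of F10 divided by that of F7 was even in WT TAMs, at 5.92, 5.75 and 6.29. In C5aR-/- TAMs it was 3.21, 15.8 and 6.09, so both the lowest and the highest ratio were in that group. On the log2 scale the ratio was 2.58 ± 0.07 in WT and 2.76 ± 1.16 in C5aR-/- TAMs (SD, n = 3), and the exact permutation p of the difference was 0.8.

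Factor V, the cofactor of activated factor X, had the second lowest mean in C5aR-/- TAMs. F5 read 31.5, 9.51 and 2.46 TPM in WT and 2.42, 3.62 and 0.17 TPM in C5aR-/- TAMs. Only WT TAM 3 fell within the C5aR-/- range, and values spanned 185 times from the highest to the lowest library. The difference was -2.00 (SE 0.88, interval -4.09 to 0.09, limma adjusted p 0.365). Transcripts that define hepatocytes, the main source of circulating factors V, VII and X, were near 0, with Alb at 0 to 0.11 TPM and the list of 5 genes summing to 1.16 to 3.53 TPM, and the fibrinogen genes Fga, Fgb and Fgg were listed at 0 in all 6 libraries.

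F13a1, the fibrin cross-linking enzyme, varied most of the members over the 6 libraries on the log2 scale, with an SD of log2(TPM + 1) of 2.06. It read 67.4, 23.4 and 0.98 TPM in WT and 118, 28.7 and 3.98 TPM in C5aR-/- TAMs. In each group library 1 was the highest and library 3 the lowest, and the groups overlapped. The difference of 0.80 had an SE of 1.56 and an interval from -2.92 to 4.53 (limma adjusted p 0.85), and it turned negative without WT TAM 3 (-0.65) or without C5aR-/- TAM 1 (-0.29). Platelets also hold factor XIII A. Of the 9 platelet and megakaryocyte markers, Pf4 ranged from 8.51 to 280 TPM in the same order as F13a1 within each group, Itga2b from 5.44 to 10.8, and 7 did not reach the filter, among them Gp9 at 0 to 0.72 TPM. The summed platelet list was 20.95 to 154 TPM in WT and 20.7 to 293 TPM in C5aR-/- TAMs, mostly Pf4 in libraries 1 and 2 of both groups, and its part in the F13a1 values was not tested.

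In plasminogen activation, the inhibitor gene was lower in C5aR-/- TAMs at the unadjusted threshold, while the protease and its receptor had higher means without passing it. Serpinb2 read 108, 28.8 and 12.3 TPM in WT and 3.41, 8.89 and 0.57 TPM in C5aR-/- TAMs. All C5aR-/- values were under the lowest WT value, and the mean was 49.7 ± 51.1 TPM in WT and 4.29 ± 4.23 TPM in C5aR-/- TAMs (SD, n = 3). The difference of -3.10 (SE 0.92, interval -5.29 to -0.91) was the most negative of the members, and 0.135% of all genes tested had a lower one. The limma adjusted p was 0.224 and the exact permutation p 0.1. Serpinb2 passed the unadjusted threshold in every leave-one-library-out fit and every other setting tried, with adjusted p values from 0.102 to 0.612, and passed the adjusted one in none.

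Urokinase was expressed at a low level. Plau read 5.93, 9.26 and 4.28 TPM in WT and 16.2, 9.08 and 7.26 TPM in C5aR-/- TAMs, and the groups overlapped because WT TAM 2 exceeded the lower C5aR-/- values. Its difference was 0.64 (SE 0.36, interval -0.22 to 1.5, limma adjusted p 0.462). The receptor was far more abundant. Plaur read 168, 69.8 and 37.8 TPM in WT and 260.4, 135 and 93.8 TPM in C5aR-/- TAMs. WT TAM 1 exceeded the lower 2 C5aR-/- libraries, while the other WT libraries were under all C5aR-/- libraries. Its difference was 0.95 (SE 0.59, interval -0.45 to 2.36, limma adjusted p 0.51), and without WT TAM 1 it was 1.51 and passed the unadjusted threshold. The TPM ratio of Plau to Plaur was 0.0353, 0.133 and 0.113 in WT and 0.0620, 0.0675 and 0.0774 in C5aR-/- TAMs, with overlapping groups and an exact permutation p of 0.9.

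Thbs1 had the highest mean of the members in WT TAMs and overlapping groups. It read 490.1, 102 and 28.0 TPM in WT and 148, 200.3 and 40.8 TPM in C5aR-/- TAMs. WT TAM 1 and WT TAM 3 enclosed all C5aR-/- values. The difference was -0.08 (SE 1.06, interval -2.61 to 2.46, limma adjusted p 0.98), which leaves room for changes of several fold either way, and it became 0.98 without WT TAM 1 and 0.61 without C5aR-/- TAM 3.

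**Figure D2:**
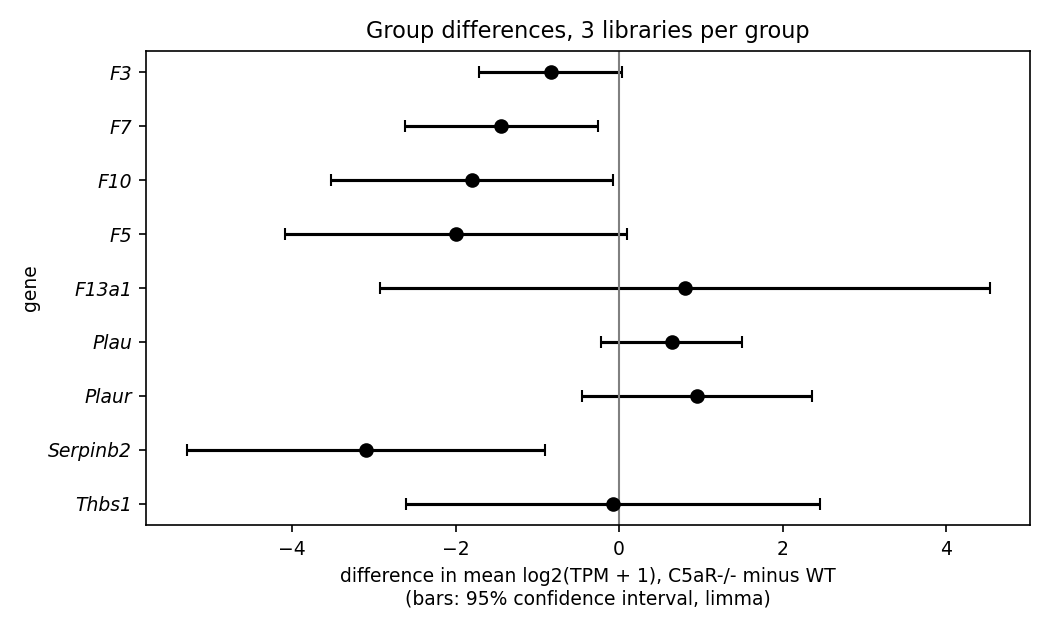
Difference in mean log2(TPM + 1) between C5aR-/- and WT TAMs (horizontal axis) for the 9 genes, with bars for the 95% confidence interval from limma and 3 libraries in each group. The intervals of Serpinb2, F7 and F10 lie below 0, from -5.29 to -0.91 for Serpinb2, and those of the other 6 genes include 0.

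As a share of the summed TPM of the 9 genes, which compares genes within a library, Plaur took 16.9%, 22.4% and 27.7% in WT and 43.8%, 31.4% and 57.5% in C5aR-/- TAMs. Serpinb2 took 10.9%, 9.24% and 8.98% in WT and 0.574%, 2.07% and 0.349% in C5aR-/- TAMs. So the receptor's share was above, and the inhibitor's share below, all WT shares in each C5aR-/- library. The shares of F7, F10 and F5 were likewise below all their WT shares in each C5aR-/- library, so this was not particular to Serpinb2. Shares of one sum are tied to each other, and they were not tested. Thbs1 took the largest share in WT TAM 1, 49.3%, WT TAM 2, 32.7%, and C5aR-/- TAM 2, 46.7%, and Plaur in the other 3 libraries. By mean TPM the order in WT was Thbs1, Plaur, Serpinb2, F3, F10, F13a1, F5, Plau and F7, and in C5aR-/- TAMs it was Plaur, Thbs1, F13a1, F3, Plau, F10, Serpinb2, F5 and F7. The library ranges of every pair of neighbors in both orders overlapped. Within single libraries, Plaur was above Serpinb2 in all 3 WT libraries. In all 3 C5aR-/- libraries Thbs1 was above F13a1, F3 above Plau, F10 above Serpinb2 and Serpinb2 above F5. The other neighbors changed order between the libraries of a group, so their rank is not set by these data. Serpinb2 held the third place in WT and the seventh in C5aR-/- TAMs.

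Since all 9 genes and the macrophage markers were lowest in library 3 of each group, though 4 members in C5aR-/- TAMs and Plau in WT did not share the markers' peak in library 1, each gene was also expressed relative to the macrophage index, as log2(TPM + 1) minus the index, a step added after the data were seen. The index itself was 6.44 ± 0.78 in WT and 6.80 ± 0.72 in C5aR-/- TAMs (SD, n = 3; exact permutation p 0.6), so this lowers relative values in C5aR-/- TAMs by 0.36 on average. On this scale 5 members, F3, F7, F10, F5 and Serpinb2, were lower in every C5aR-/- library than in every WT library, against 3.78% of all genes tested. Plaur, 1 of the 9, was higher in every C5aR-/- library, against 0.521% of genes. The median over all genes tested was -0.41. The exact permutation p of each of the 6 was 0.1, the smallest possible.

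F7 had a small spread within groups on this scale. The 1 added to TPM narrows the spread of low values, and F7 read 2.29, 1.33 and 0.44 TPM in C5aR-/- TAMs. Its relative value was -3.78, -3.86 and -3.88 in WT and -5.81, -5.55 and -5.57 in C5aR-/- TAMs, a difference of -1.80 beside within-group SDs of 0.05 and 0.15. F3 was at -1.64, -0.72 and -0.89 in WT and at -2.32, -2.31 and -2.24 in C5aR-/- TAMs, a difference of -1.20. These are the receptor and the protease of the initiating complex, and each C5aR-/- library was under each WT library for both. Serpinb2 differed by -3.46, F5 by -2.36 and F10 by -2.16. Plaur was at 0.09, -0.01 and -0.56 in WT and at 0.50, 0.32 and 0.47 in C5aR-/- TAMs, a difference of 0.59. F13a1, Plau and Thbs1 overlapped between groups, with differences of 0.44, 0.28 and -0.44 and exact permutation p values of 0.7. In limma with the index as a covariate, F3, F7, F10, F5 and Serpinb2 were lower at the unadjusted threshold, against 3.57% of all genes tested, and 0 members were higher, against 2.9%. The adjusted threshold was passed by 0 members and 0 genes in that fit.

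**Figure D3:**
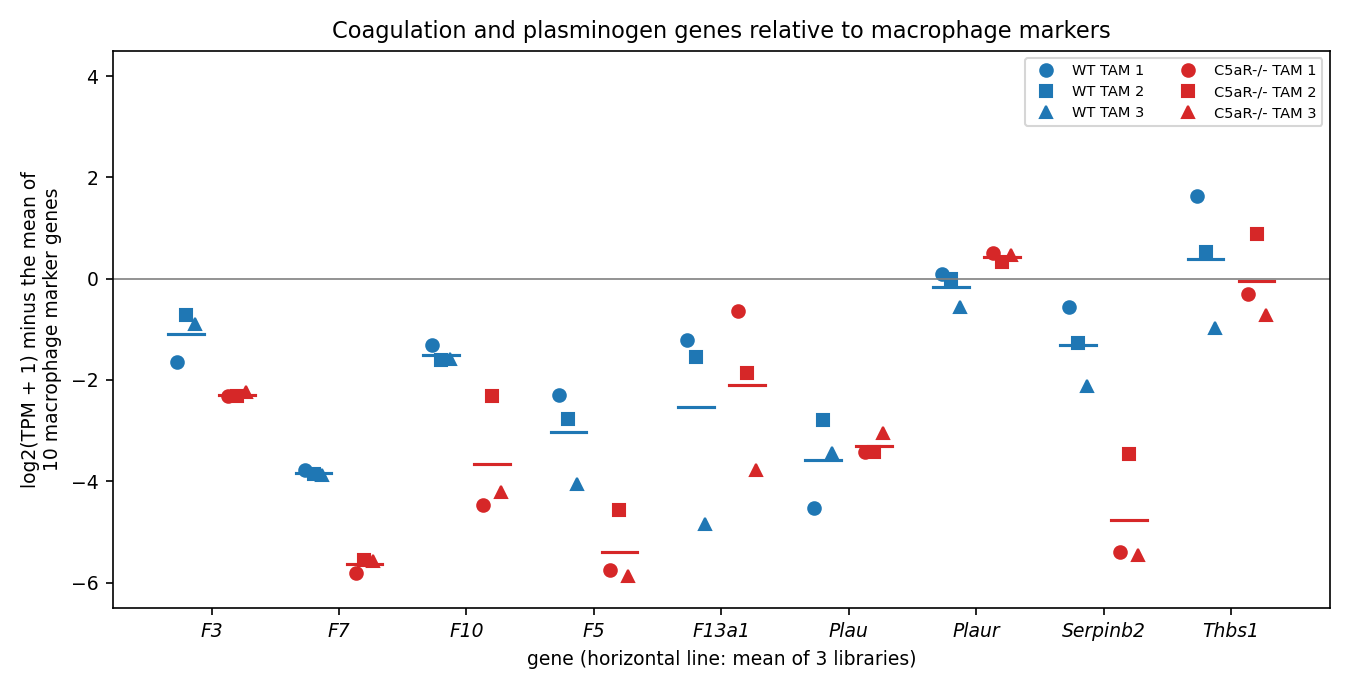
Level of the 9 genes relative to macrophage markers, as log2(TPM + 1) minus the mean of 10 macrophage marker genes in the same library, with WT TAMs in blue, C5aR-/- TAMs in red and a line at the mean of 3 libraries. F3, F7, F10, F5 and Serpinb2 lie lower and Plaur higher in all 3 C5aR-/- libraries, for F7 at -5.81 to -5.55 against -3.88 to -3.78 in WT.

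Most of the other genes of both systems passed neither threshold. Of 16 other coagulation factor genes, 11 were under 1 TPM in all 6 libraries, including prothrombin (F2) at 0 to 0.07 TPM and factor IX (F9) at 0 to 0.12 TPM, and 0 of the 5 tested passed either threshold. Their median difference was -0.03. The enzymes that carboxylate the vitamin K-dependent factors VII and X, and recycle the vitamin, were present in both groups: Ggcx read 22.5 ± 0.294 TPM in WT and 22.1 ± 2.76 TPM in C5aR-/- TAMs (SD, n = 3), with differences of -0.03 for Ggcx, 0.21 for Vkorc1 and -0.22 for Vkorc1l1. Of 12 coagulation inhibitor genes 5 were tested, with a median of 0.20 and 0 past either threshold. Among them Anxa5, which encodes a phospholipid-binding protein, differed by 0.02, Procr, the protein C receptor, by 0.26 and Pros1, protein S, by -0.53.

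The protease-activated receptors, which coagulation proteases cleave to signal into the cell, were tested for 2 of 4 genes. Both were higher in C5aR-/- TAMs at the unadjusted threshold, against 2.13% of all genes tested. F2r, the main thrombin receptor, read 43.5, 42.0 and 49.2 TPM in WT and 64.5, 126 and 130 TPM in C5aR-/- TAMs. F2rl1, which responds to the F3-F7 complex and to factor X among other proteases, read 1.47, 1.54 and 3.12 TPM in WT and 7.61, 6.14 and 6.10 TPM in C5aR-/- TAMs. In both, all C5aR-/- libraries were above all WT libraries, as in 8.84% of all genes tested. The differences were 1.17 (SE 0.28, limma adjusted p 0.162) for F2r and 1.36 (SE 0.27, limma adjusted p 0.118) for F2rl1. F2rl2 stayed at 0.50 to 1.04 TPM and F2rl3 at 0.06 to 0.28 TPM, both under the filter. F2r did not follow the macrophage markers: its highest value, in C5aR-/- TAM 3, was in a library with an index of 6.10.

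Of 14 other plasminogen system genes, 8 were tested, 4 higher and 4 lower, with a median of 0.01. Plasminogen (Plg) itself was listed at 0 in all 6 libraries. Its binding proteins on the cell surface were abundant: Anxa2 read 854 ± 53.2 TPM in WT and 796 ± 72.4 TPM in C5aR-/- TAMs, a difference of -0.10, and its partner S100a10 differed by 0.33 (limma adjusted p 0.388). Eno1, a glycolytic enzyme that can also bind plasminogen, was higher at the unadjusted threshold, at 417, 386 and 338 TPM in WT and 534, 1011 and 1086 TPM in C5aR-/- TAMs (difference 1.14, SE 0.29, limma adjusted p 0.171), although near-identical gene copies can share its reads.

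For Thbs1, 12 family members and receptors were counted, of which 10 were tested, 7 higher and 3 lower, with a median of 0.13 and 0 past either threshold. The integrin gene Itgb1 differed by -0.29, Itga6 by -0.64 (limma adjusted p 0.306) and the syndecan Sdc4 by -0.42 (limma adjusted p 0.292). For Sdc4 all C5aR-/- libraries were below WT, as in 12.5% of all genes tested. In 3 other genes all C5aR-/- libraries were above WT, as in 8.84% of all genes tested. Their differences were 0.72 for Sdc1, 0.72 for Itgb3 and 0.22 for Itgav (limma adjusted p 0.188, 0.286 and 0.507). The receptors Cd36 and Cd47 differed by 0.13 and 0.09.

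**Figure D4:**
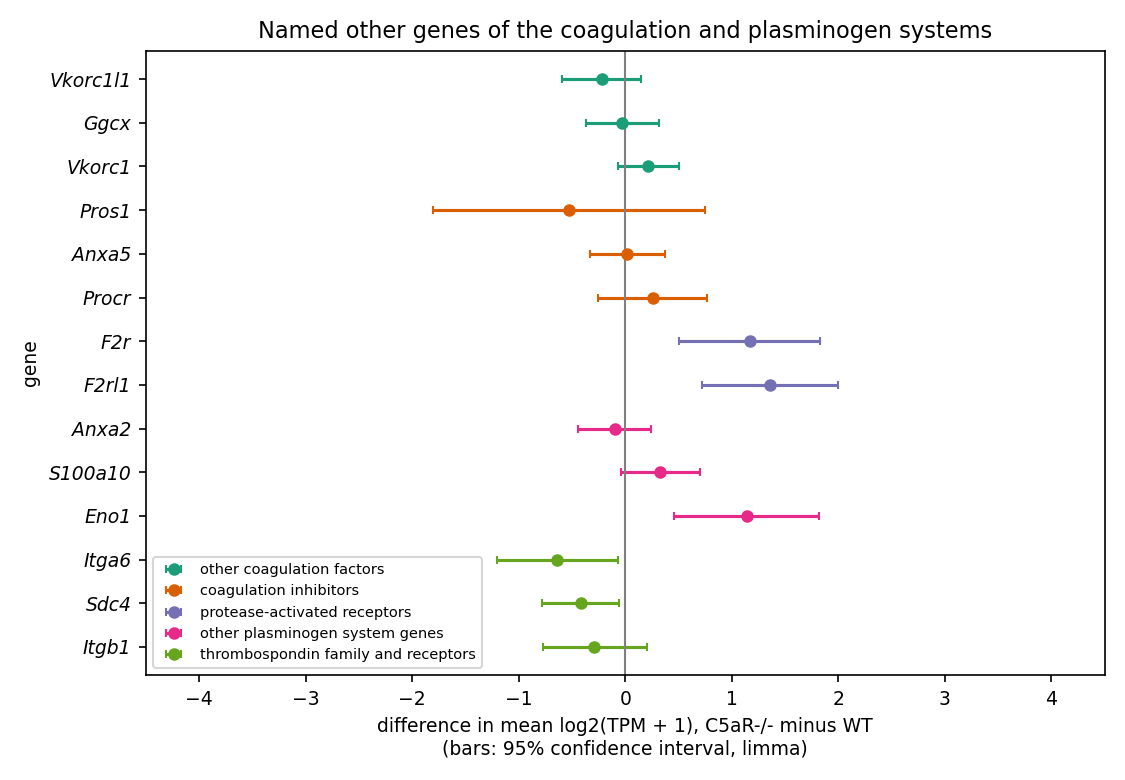
Difference in mean log2(TPM + 1) between C5aR-/- and WT TAMs (horizontal axis) for the other genes of both systems that are named in the text by rule (up to 3 of each list, by mean TPM) and were tested, colored by gene list, with bars for the 95% confidence interval from limma. F2r (1.17), F2rl1 (1.36) and Eno1 (1.14) lie farthest above 0, and most other intervals include 0.

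The genes whose profile over the 6 libraries was closest to each member, by the root mean square (RMS) distance between centred log2(TPM + 1) values, fell into different sets. F3 was closest to Map3k8 and Slfn2, each at 0.08, F7 to Lrrk2 (0.16) and Fabp7 (0.22), F10 to Nr4a1 (0.40) and Slpi (0.42), and F5 to Fabp4 (0.30) and Selp (0.31). Serpinb2 was closest to Lrg1 (0.26) and Alox15 (0.34). On the other side, Plau was closest to Fnip2 (0.16) and Prdm1 (0.17), Plaur to Fcgr2b (0.20) and Kcnk13 (0.21), F13a1 to Pf4 (0.49) and Igkv3-7 (0.58), and Thbs1 to Osm (0.44) and Ccl9 (0.53). Among the members themselves the closest pair was F3 and F7 at 0.44, followed by F10 and F5 at 0.56, and the farthest was F13a1 and Serpinb2 at 2.34. The macrophage index also varied between the 6 libraries, so these distances are only a description.

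Selp and Alox15 belong to a list of 10 genes of large peritoneal macrophages, the resident macrophages of the abdominal cavity, which are also known to express F5, F10 and Serpinb2. All 10 were tested, 9 lower and 1 higher, with a median of -1.24. At the unadjusted threshold 4 were lower, against 2.84% of all genes tested. Prg4 read 777, 182 and 68.3 TPM in WT and 18.3, 48.7 and 3.87 TPM in C5aR-/- TAMs, and Alox15 read 411, 92.6 and 33.6 TPM in WT and 22.5, 42.7 and 5.87 TPM in C5aR-/- TAMs. Both had WT TAM 1 highest and C5aR-/- TAM 3 lowest, as Serpinb2 did. For Alox15 this order comes with its closeness to the Serpinb2 profile given above. The groups overlapped for Alox15 and not for Prg4, and 12.5% of all genes tested had all C5aR-/- libraries below WT. WT TAM 1 was the highest of all libraries for 6 members, and C5aR-/- TAM 3 the lowest for 5. The differences were -3.68 for Prg4, -2.52 for Alox15, -2.41 for Icam2 and -1.49 for Timd4 (limma adjusted p 0.224, 0.331, 0.209 and 0.318). Gata6, the transcription factor that defines these cells and is also made in mesothelium, differed by -0.16, at 105 ± 12.7 TPM in WT and 93.4 ± 9.55 TPM in C5aR-/- TAMs (SD, n = 3). The part of these cells in the values of F5, F7, F10 and Serpinb2 was not tested.

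Markers of other cell types were also counted, beside 2.84% of all genes tested lower and 2.13% higher at the unadjusted threshold. The 6 neutrophil markers summed to 626 to 2299 TPM in WT and 30.8 to 388 TPM in C5aR-/- TAMs, and 4 of the 5 tested were lower at the unadjusted threshold, with S100a8 at -3.12. The 6 monocyte markers summed to 283 to 367 TPM in WT and 58.2 to 198 TPM in C5aR-/- TAMs, with Ly6c2 at -1.41, Ccr2 at 0.15 and 2 of 6 lower at that threshold. Of 6 mast cell markers 5 were lower and 1, Kit, was higher at that threshold, with Cpa3 at 11.9 to 26.7 TPM in WT and 0 to 1.59 TPM in C5aR-/- TAMs. The neutrophil sum was highest in WT TAM 2 and the monocyte sum in WT TAM 3. The 7 endothelial markers summed to 72.9 to 138 TPM, mostly Esam, with Cdh5, Tie1 and Emcn under 1 TPM, and 0 of the 4 tested passed either threshold. The part of any of these cells in the member values was not tested.

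The 10 immediate early genes, which include subunits of AP-1, had a median difference of -0.15, with 4 higher, 6 lower and 0 past either threshold. Fos read 1116 ± 562 TPM in WT and 1324 ± 582 TPM in C5aR-/- TAMs, Jun 1548 ± 611 and 1988 ± 1327 TPM, and Junb 872 ± 265 and 1500.0 ± 639 TPM (SD, n = 3), with differences of 0.25, 0.09 and 0.71. The groups overlapped for all 3. In Egr1, the 1 gene of the list whose groups did not overlap, all C5aR-/- libraries were below WT, as in 12.5% of all genes tested. Its difference was -0.80 (SE 0.25, limma adjusted p 0.233).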

How the data were processed

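RNA of sorted TAMs was measured in 6 libraries, grouped by the sample titles. The authors deposited gene-level TPM values in 1 table, which also holds their mean TPM of each group. The submitters' processing notes name fastp, HISAT2, StringTie, RSEM, DESeq2 and mm10, without versions, and the annotation release is not given in the sources used here. TPM holds no counts, so no count test was run. Symbols and positions were taken from GENCODE M21 (GRCm38) and promoter sequences from RefSeq (GRCm38.p6).

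Differences were tested with limma 3.58.1 in R 4.3.3 (lmFit, eBayes with trend) on log2(TPM + 1), a pseudocount of 1 that understates the change of low genes, keeping genes that reached 1 TPM in 3 or more of the 6 libraries. P-values were adjusted by Benjamini-Hochberg over the 14776 genes tested. A difference is C5aR-/- minus WT. Exact permutation tests were two-sided and cannot go under 0.1 with 3 against 3 libraries. Tables were handled with Python 3.11.15 and pandas 2.3.3, and the fit was tested on simulated data. Named pathway genes are the 3 with the highest mean TPM of each list and all past the unadjusted threshold. Other list genes named (Cd36, Cd47, Sdc1, Itgb3, Itgav, Egr1, Plg, the genes at or near 0 TPM and single markers beside the first of each marker list) were chosen after their values were seen. The 2 closest profiles were named for each member. The members and lists were chosen with earlier results of these data known. Alternatives were another pseudocount, other filters, quantile and median-of-ratios scaling, a replicate block, no trend, each library left out, and the macrophage index as a covariate, which was chosen after seeing the data.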

Additional observations from a re-analysis of the deposited data

How the results depend on the processing

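Serpinb2, F7, F10, F5 and F3 kept a negative difference, and Plau and Plaur a positive one, in every setting that gave a value, and 0 members passed the adjusted threshold in any. F13a1 turned to -0.28 with the macrophage index as a covariate and ranged from -0.65 (without WT TAM 3) to 2.00 when 1 library was left out, also turning negative without C5aR-/- TAM 1 (-0.29). Thbs1 ranged from -1.06 to 0.98, turning positive without WT TAM 1 (0.98) or C5aR-/- TAM 3 (0.61). The members past the unadjusted threshold numbered 5 with the covariate and 1 to 5 over the left-out libraries, with 5 without WT TAM 3 and 1, Serpinb2, without C5aR-/- TAM 3. With a TPM of at least 5, F7 and F5 were no longer tested, and 201 genes were higher and 274 lower at that threshold. Leaving out 1 library gave 244 to 619 higher and 323 to 647 lower genes, and 0 to 356 past the adjusted threshold, the highest numbers all without C5aR-/- TAM 1, and 1 and 3 adjusted calls without C5aR-/- TAM 2 and C5aR-/- TAM 3. Without the trend in eBayes 2 genes passed the adjusted threshold. The median of the protease-activated receptors was 0.632 with no filter, since both low receptors then entered. The causes of the other shifts were not tested.

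Left-out libraries moved F3 from -1.19 to -0.52, F7 from -1.76 to -0.97, F10 from -2.46 to -1.17, F5 from -2.81 to -1.19, Plau from 0.34 to 0.90, Plaur from 0.45 to 1.51 and Serpinb2 from -3.80 to -2.28. Same-numbered WT and C5aR-/- libraries had deviations correlated at 0.186, -0.011 and 0.272, beside -0.23 to 0.093 for libraries of different number. The values for numbers 1 and 3 were thus above those of all different-numbered pairs. The sample labels state no pairing, so the numbers were not taken to pair the samples in the main fit. With the replicate number as a block, 4 members (F7, F10, F5 and Serpinb2) passed the unadjusted threshold, with 344 genes higher, 467 lower and 0 past the adjusted one. F10 missed the unadjusted threshold with no filter and with median-of-ratios scaling, and F7 and Serpinb2 passed it in both. A pseudocount of 0.1 gave -2.04 for F7, -2.75 for F5 and -3.61 for Serpinb2. TPM gives no depth, so the counting error of low values such as F7 and F5 in C5aR-/- TAM 3 cannot be stated.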
